A study of Mus musculus with 24 samples.

Results

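Interferon response and antigen presentation genes were described in C2C12, an established clonal mouse myoblast line that fuses into myotubes after serum is lowered. The set holds 44 genes of the 48544 in the deposited tables, chosen by name: 42 were found by the symbol in the table, and H2-K1 and H2-D1 by their gene identifiers, because the table prints both as H2. RNA was sequenced in 24 libraries, 4 in each of 6 groups: day 0 myoblasts in 10% fetal bovine serum, day 7 myotubes in 2% serum, and myotubes given 100 µM dexamethasone or vehicle medium with 1% ethanol, for 24 h (day 8) or for 72 h (day 10), also in 2% serum. The labels name no interferon, virus or genetic change in any group. Ethanol is named in the labels of the vehicle groups and not in those of the dexamethasone groups. Nothing says that the 4 replicates of a group came from separate cultures. The p-values therefore measure only how far these libraries spread, and that spread may be technical.

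Interferons are cytokines released when a cell meets viral or misplaced nucleic acid. Type I interferon receptors signal through Jak kinases to a complex that holds Stat2 and Irf9 and binds the interferon-stimulated response element (ISRE), while interferon gamma acts at the gamma-activated site (GAS) and through the factor Irf1. The genes so induced block viral replication, and they raise the display of peptides on class I molecules. In these a heavy chain and beta-2 microglobulin pair, and the Tap transporter and tapasin then help to load the peptide. Dexamethasone is a synthetic glucocorticoid, a class of drug known to dampen inflammatory and interferon signalling, and is used here to induce atrophy of muscle cells.

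Levels are TPM, a length-scaled abundance computed by the authors, in which levels of different genes can be compared. Values listed for a group are those of replicates 1, 2, 3 and 4 in that order, and a mean is given ± SD (n = 4). Tests are limma fits on the other deposited table, which holds log2-scale values normalised by the authors. Differences on that scale understate fold changes, since across 12737 genes their slope on log2 differences of TPM was 0.58 to 0.69. A gene was called higher or lower at an adjusted p below 0.05 over all 16257 genes tested. Of the 44 genes, 41 had enough signal to be tested. Cmpk2, a nucleotide kinase, Ifi44, a gene induced by type I interferon, and Usp18, the protease that removes Isg15, did not, and none of them passed 0.309 TPM in any library.

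Without added interferon the members covered a wide range of levels. B2m led with a mean of 609 TPM over all 24 libraries, followed by Ifi27, a small membrane protein induced by type I interferon, at 137 TPM. The class I genes H2-K1, H2-D1 and Tapbp came next, at 67.6, 57.7 and 54.4 TPM. Some genes known for a strong response to interferon were low. Rsad2 (viperin, which makes a chain-terminating nucleotide) averaged 0.110 TPM, Mx2 (an antiviral GTPase) 0.313 TPM and Ifit1 (which binds foreign RNA caps) 0.339 TPM. Other induced members were higher, such as Isg15 at 4.06 TPM, Ifit2 at 8.67 TPM, Bst2 at 12.4 TPM and Irgm1 at 16.4 TPM. In all, 36 of 44 members reached a mean of 0.5 TPM in at least 1 group. Dexamethasone at 72 h was the lowest of the 6 groups for 27 of 44 members, and day 0 was the highest for 15. Members near 0 TPM are among these, and the like order was not counted over all genes.

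The libraries were checked before comparison. The 6 genes of a glucocorticoid treatment list (Fkbp5, Tsc22d3, Per1, Klf15, Zbtb16 and Dusp1) were all called higher with dexamethasone at both times, with a summed level of 632 to 795 TPM at 72 h against 117 to 204 TPM with vehicle. The replicate 1 libraries at 72 h stood apart. For 11 genes that were under 0.5 TPM in the other vehicle libraries and over 5 TPM with dexamethasone, vehicle replicate 1 reached 13.7% (median) of dexamethasone replicate 1. For 9 genes of the opposite kind, dexamethasone replicate 1 reached 18.3% of vehicle replicate 1. The like median was 0.241% to 5.45% in the other 72 h libraries. Their upper quartiles reached 17.6% in vehicle replicate 2 and 14.6% in dexamethasone replicate 3, so single genes overlapped with replicate 1. The genes for replicate 1 were chosen from replicates 2, 3 and 4, and those for each other library from 2 of these, so the measure was not quite alike. Member results at 72 h are therefore given also without both replicate 1 libraries, beside the result or after the class I genes. The wider pathway lists are likewise counted both ways. Leaving out libraries that lean to the opposite group tends to widen differences, so those results are not an independent check. Genes that mark immune cells were low. Summed macrophage markers lay between 2.21 and 5.34 TPM in every library, and 1 or 2 of the 9 reached a mean of 1 TPM in each group. Their median sum at 72 h was 4.80 TPM with dexamethasone and 2.72 TPM with vehicle. C1qa, C1qb and Fcgr1 were at 0 TPM in every group. Dendritic cell markers summed to 0.44 to 1.46 TPM, with 1 at a mean of 1 TPM or more in both 72 h groups. Markers of T, B and natural killer cells summed to 0.0960 to 0.391 TPM. Of the 12 markers of myoblasts and myotubes, all reached a mean of 1 TPM in every group.

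Promoters of members that moved in different directions with dexamethasone are shown first, because several carry the sequence bound by the interferon-activated Stat and Irf factors. The windows are RefSeq promoters (mouse build GRCm38.p6) that run 250 bases before to 50 bases after each gene's start, and 35 of the 44 members had one. The ISRE core GAAANNGAAA, searched on both strands, was in 15 of 35 members (42.9%) and in 3.99% of 27025 genes. The stretches printed are those around the matches, read 5′ to 3′ on the gene's own strand, and the capitals mark the ISRE core or its reverse complement, overlapping cores running together.
Isg15: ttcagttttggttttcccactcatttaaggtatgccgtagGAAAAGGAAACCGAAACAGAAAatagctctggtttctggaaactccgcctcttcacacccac
Ifit3: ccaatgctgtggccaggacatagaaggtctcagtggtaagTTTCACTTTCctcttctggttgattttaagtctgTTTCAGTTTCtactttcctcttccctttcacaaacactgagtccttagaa
Gbp2: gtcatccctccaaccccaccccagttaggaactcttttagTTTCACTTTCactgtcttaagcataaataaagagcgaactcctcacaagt
Irgm1: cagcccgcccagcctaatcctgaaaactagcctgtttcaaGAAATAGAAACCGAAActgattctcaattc
B2m: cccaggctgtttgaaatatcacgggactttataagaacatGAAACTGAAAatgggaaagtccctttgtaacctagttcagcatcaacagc
Ifi207: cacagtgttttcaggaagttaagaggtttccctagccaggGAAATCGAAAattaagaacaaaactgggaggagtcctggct
Igtp: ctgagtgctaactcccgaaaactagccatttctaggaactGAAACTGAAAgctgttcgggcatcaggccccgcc
Bst2: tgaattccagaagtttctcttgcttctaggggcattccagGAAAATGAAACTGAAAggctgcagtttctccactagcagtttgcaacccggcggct

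Isg15 lies on the minus strand at chr4:156200835-156200936 and holds 3 overlapping cores. Ifit3, with 2 separate cores, lies on the plus strand at chr19:34583333-34583456, Gbp2 on the plus strand at chr3:142620564-142620653, Irgm1 on the minus strand at chr11:48871421-48871490, and B2m on the plus strand at chr2:122147508-122147597. These 5 genes were called lower with dexamethasone at both times. Ifi207 (minus strand, chr1:173741810-173741890) and Igtp (plus strand, chr11:58199482-58199555) were called higher at both times, and Bst2 (minus strand, chr8:71537547-71537642) was called at neither. The core thus stood in genes of each outcome: 6 of the 16 members called lower at 72 h that had a window, and 9 of the other 19.

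The second motif, TTCNNNGAA, is the GAS and is its own reverse complement. It was in 7 of 35 members (20%) and in 9.55% of all genes. Its match in the Irf1 promoter (plus strand, chr11:53769884-53769972) is in capitals here.
Irf1: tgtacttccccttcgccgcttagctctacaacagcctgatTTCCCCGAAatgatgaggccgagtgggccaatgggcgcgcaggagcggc

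A glucocorticoid response element, searched as GNACANNNTGTNC, was in 0 of 35 members and in 0.537% of all genes, which says only that these letters are absent from these windows.

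Dexamethasone was compared with vehicle at each time to describe the early and the sustained response. At 24 h, 12 of 41 tested members were called lower and 5 higher, where 12.2% of all genes tested were called lower and 13.2% higher. At 72 h, 21 of 41 were called lower and 3 higher, where each direction held 15.2% of all genes. Without both replicate 1 libraries at 72 h the counts were 24 lower and 5 higher, against 15.7% and 15.1% of all genes, and they included each of the 21 and 3. The median difference over the members was -0.04 at 24 h and -0.43 at 72 h on the log2 scale of the table, beside -0.01 and 0.01 over all genes. All 12 members called lower at 24 h were among the 21 at 72 h, and the 3 called higher at 72 h were among the 5 at 24 h. The like overlap over all genes was not counted, so this may not be particular to the members. The count called higher at 24 h was 2 without dexamethasone replicate 1 and 3 without vehicle replicate 3, and that at 72 h was 5 without vehicle replicate 2. Tests with a different table or spread ended some calls: a fit on log2(TPM + 0.1) lost B2m, Dtx3l and Gbp2 at 24 h (adjusted p = 0.103, 0.206 and 0.0643), and a fit of the groups compared alone lost Dtx3l and Igtp at 24 h (0.0668 and 0.0635) and Gbp7, Lgals3bp, Samd9l and Sp100 at 72 h (0.152, 0.11, 0.0879 and 0.0668). In bulk RNA, fewer cells that express a gene and less RNA per cell cannot be told apart.

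**Figure D1:**
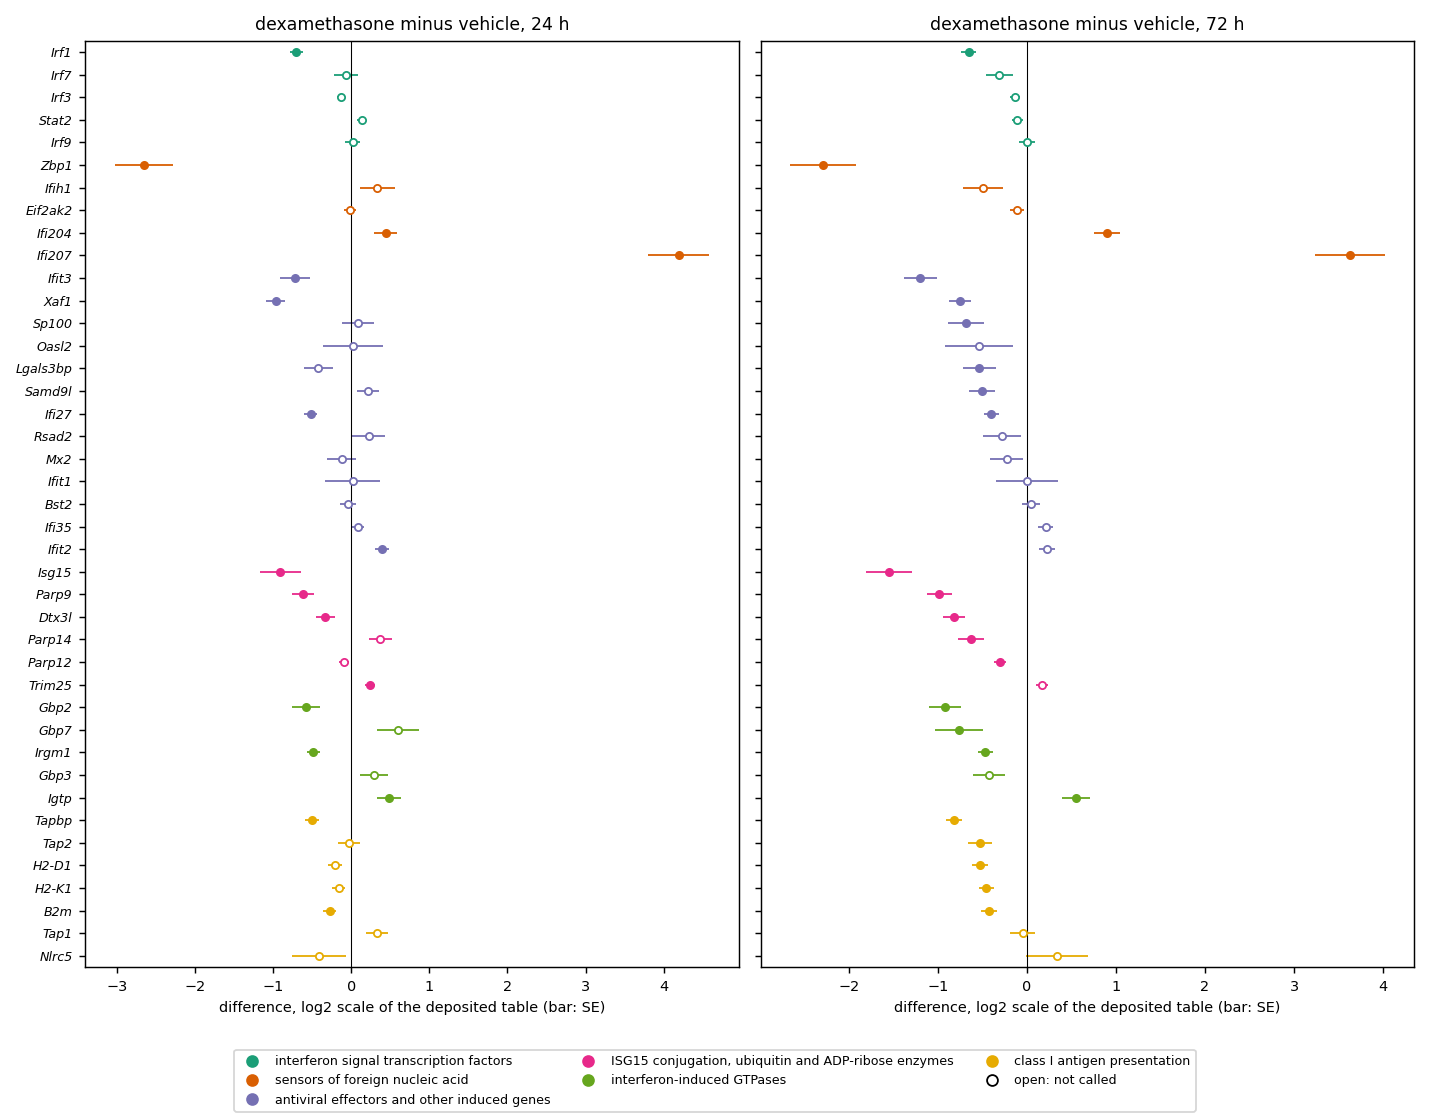
Difference between dexamethasone and vehicle for the 41 tested members at 24 h (left) and 72 h (right), in log2 units of the authors' table, with bars for the SE. Filled points were called and open points were not, colours give the role of the gene, and most points of the class I and Isg15-related groups lie left of 0 at 72 h.

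Other markers moved with these groups at 72 h. Fibroblast markers, 6 of whose 7 tested genes were called lower, summed to 130 to 1048 TPM with dexamethasone (130 to 342 TPM without replicate 1), against 2082 to 3158 TPM with vehicle. All 6 proliferation markers were called higher, with sums of 211 to 506 TPM with dexamethasone against 86.3 to 122 TPM with vehicle. At 24 h the fibroblast sums were 1079 to 1261 TPM with dexamethasone against 1830 to 2926 TPM with vehicle, with 4 of 7 markers called lower and 1 higher, and the proliferation sums overlapped. Their part in the results on interferon genes was not tested.

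With all libraries, among the 5 transcription factors of the set (Stat2, Irf1, Irf3, Irf7 and Irf9), Irf1 alone was called lower, at both times, and none of the 5 was called higher. Irf1, which switches on class I and guanylate-binding protein genes, had 10.7, 9.20, 8.92 and 9.61 TPM with dexamethasone, against 15.9, 20.3, 18.6 and 19.4 TPM with vehicle at 24 h. At 72 h Irf1 had 13.3, 10.6, 9.63 and 9.06 TPM with dexamethasone, against 18.6, 24.1, 17.9 and 24.0 TPM with vehicle. Every library with dexamethasone was lower than every library with vehicle at the same time. Irf1 was 1.93-fold lower at 24 h (adjusted p = 2.94e-06) and 1.99-fold lower at 72 h (adjusted p = 6.44e-06), or 2.25-fold without both replicate 1 libraries.

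The partners of the type I complex stayed closer to vehicle. Stat2 averaged 6.54 ± 0.419 TPM with dexamethasone and 5.30 ± 0.288 TPM with vehicle at 24 h (adjusted p = 0.0984). Every dexamethasone library was above every vehicle library there, though the gene was not called. At 72 h Stat2 averaged 5.27 ± 0.618 TPM with dexamethasone and 5.98 ± 0.579 TPM with vehicle (adjusted p = 0.177), or adjusted p = 0.0465 and lower without both replicate 1 libraries. Irf9 averaged 5.05 ± 0.366 TPM with dexamethasone and 4.62 ± 0.443 TPM with vehicle at 24 h (adjusted p = 0.906). At 72 h Irf9 averaged 4.35 ± 0.843 TPM with dexamethasone and 4.41 ± 0.718 TPM with vehicle (adjusted p = 0.986). Irf3, the factor that nucleic acid sensors activate, averaged 34.7 ± 1.79 TPM with dexamethasone and 36.8 ± 2.82 TPM with vehicle at 24 h (adjusted p = 0.0901). At 72 h Irf3 averaged 29.1 ± 2.35 TPM with dexamethasone and 33.9 ± 2.09 TPM with vehicle (adjusted p = 0.0601). With limma on log2(TPM + 0.1) that difference did pass the threshold (adjusted p = 0.0221). Irf7, which amplifies type I interferon production, was low, at 0.356, 0.255, 0.279 and 0.352 against 0.403, 0.469, 0.437 and 0.531 TPM at 72 h in dexamethasone and vehicle libraries. Those 72 h ranges did not overlap, yet the gene was not called (adjusted p = 0.126), and at 24 h its means were 0.577 ± 0.142 against 0.580 ± 0.160 TPM (adjusted p = 0.788).

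Sensors of foreign nucleic acid moved in both directions. Zbp1, a sensor of left-handed nucleic acid that can trigger necroptosis, had 0.147, 0.177, 0.452 and 0.109 TPM with dexamethasone, against 1.04, 5.57, 6.04 and 3.97 TPM with vehicle at 24 h. At 72 h Zbp1 had 0.184, 0.0738, 0.164 and 0.0221 TPM with dexamethasone, against 0.907, 3.38, 1.34 and 2.74 TPM with vehicle. The dexamethasone libraries were all below the vehicle libraries at each time, and replicate 1 was the lowest vehicle library at both. The difference was -2.65 (SE 0.37) on the log2 scale of the table at 24 h (adjusted p = 1.83e-05) and -2.29 (SE 0.37) at 72 h (adjusted p = 6.84e-05), the largest negative difference of any member at either time.

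Ifi207 and Ifi204, neighbouring members of the mouse Ifi200 family of DNA-binding proteins, went the other way. Ifi207 had 17.4, 18.2, 11.4 and 22.9 TPM with dexamethasone, against 0.201, 0.218, 0.219 and 0.262 TPM with vehicle at 24 h. At 72 h Ifi207 had 21.4, 8.47, 25.3 and 11.3 TPM with dexamethasone, against 3.17, 0.151, 0.217 and 0.167 TPM with vehicle. It was near the lowest levels of the set with vehicle except in replicate 1 at 72 h, one of the libraries that stood apart, and every dexamethasone library was higher. The difference was 4.19 (SE 0.39) at 24 h (adjusted p = 7.94e-08) and 3.63 (SE 0.39) at 72 h (adjusted p = 7.51e-07). Without both replicate 1 libraries at 72 h it was 4.12 (adjusted p = 3.12e-11). Ifi207 meets the rule for the genes by which vehicle replicate 1 was set apart. Its result without that library is therefore not independent of the choice to leave it out.

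Ifi204, a DNA sensor of the same family, had 27.3, 20.0, 18.4 and 19.2 TPM with dexamethasone, against 15.8, 12.6, 10.3 and 11.4 TPM with vehicle at 24 h. At 72 h Ifi204 had 41.0, 25.6, 30.3 and 21.5 TPM with dexamethasone, against 17.1, 9.73, 11.6 and 9.69 TPM with vehicle. Its ranges did not overlap at either time, and replicate 1 was the highest library in each of these 4 groups. It was 1.69-fold higher at 24 h (adjusted p = 0.0295) and 2.46-fold higher at 72 h (adjusted p = 7.42e-05). The 24 h call was lost without dexamethasone replicate 1 (adjusted p = 0.107), and without vehicle replicate 2, 3 or 4 (adjusted p = 0.0563, 0.0954 and 0.0678). Reads from such related genes can be split between copies, so the level of a single Ifi200 gene is uncertain.

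Eif2ak2, the RNA-activated kinase that halts translation, averaged 6.75 ± 0.787 TPM with dexamethasone and 6.39 ± 0.831 TPM with vehicle at 24 h (adjusted p = 0.919). At 72 h Eif2ak2 averaged 7.42 ± 1.00 TPM with dexamethasone and 8.45 ± 1.28 TPM with vehicle (adjusted p = 0.315). Ifih1 (MDA5, a sensor of long double-stranded RNA) averaged 0.789 ± 0.112 TPM with dexamethasone and 0.522 ± 0.114 TPM with vehicle at 24 h, where every dexamethasone library was above every vehicle library and the gene was not called (adjusted p = 0.291). At 72 h Ifih1 averaged 0.370 ± 0.224 TPM with dexamethasone and 0.628 ± 0.249 TPM with vehicle. The 72 h difference was not called (adjusted p = 0.103), while with the replicate number as a block it was (adjusted p = 0.0324), and without both replicate 1 libraries it was too (adjusted p = 0.036).

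**Figure D2:**
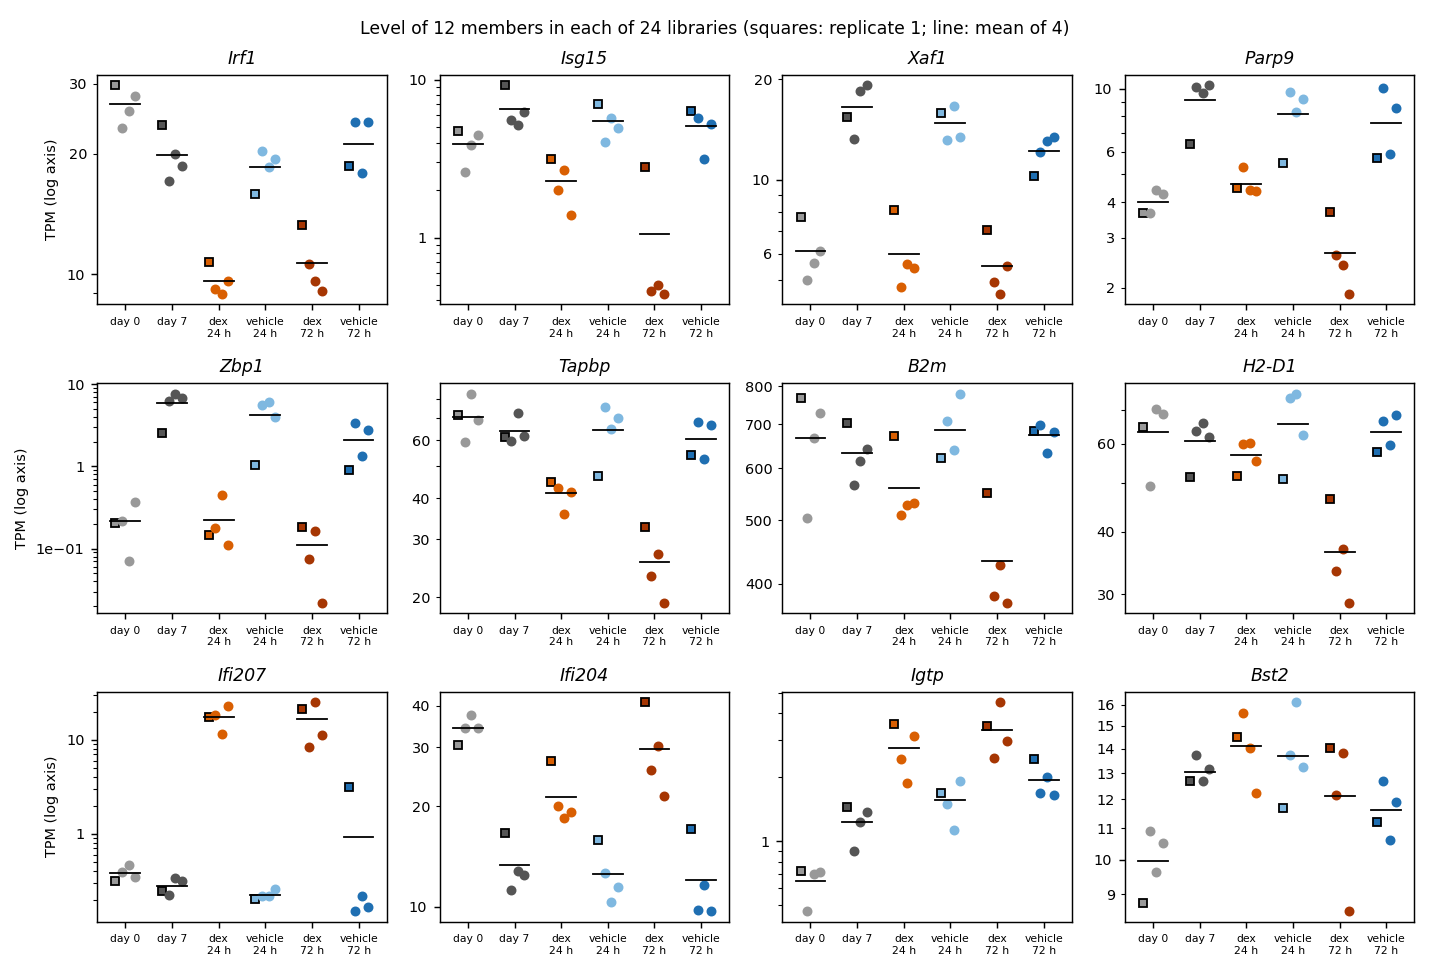
TPM of 12 members in each of the 24 libraries (log axis), with groups in order of time and dexamethasone left of vehicle; squares are replicate 1, circles replicates 2 to 4 and lines the group mean. Irf1, Isg15, Xaf1, Zbp1 and Tapbp lie lower with dexamethasone than with vehicle at both times, Ifi207, Ifi204 and Igtp lie higher on average, and Bst2 overlaps.

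Of 13 tested antiviral effectors and other induced genes, 3 were called lower and 1 higher at 24 h, and 6 lower and 0 higher at 72 h. Xaf1, a gene that promotes apoptosis, had 8.10, 4.76, 5.61 and 5.45 TPM with dexamethasone, against 15.8, 13.1, 16.7 and 13.4 TPM with vehicle at 24 h. At 72 h Xaf1 had 7.09, 4.92, 4.55 and 5.53 TPM with dexamethasone, against 10.2, 12.1, 13.1 and 13.4 TPM with vehicle. No dexamethasone library reached a vehicle library of its time. It was 2.47-fold lower at 24 h (adjusted p = 4.95e-06) and 2.21-fold lower at 72 h (adjusted p = 6.97e-05).

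Ifi27 had 132, 119, 109 and 104 TPM with dexamethasone, against 194, 165, 196 and 168 TPM with vehicle at 24 h. At 72 h Ifi27 had 112, 83.9, 93.8 and 84.7 TPM with dexamethasone, against 144, 156, 120.0 and 155 TPM with vehicle. The groups did not overlap at either time, and Ifi27 was 1.56-fold lower at 24 h (adjusted p = 0.000118) and 1.54-fold lower at 72 h (adjusted p = 0.000863).

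Ifit3, an RNA-binding antiviral protein, had 0.844, 0.596, 0.524 and 1.05 TPM with dexamethasone, against 1.41, 1.31, 1.32 and 1.78 TPM with vehicle at 24 h. At 72 h Ifit3 had 0.737, 0.346, 0.566 and 0.284 TPM with dexamethasone, against 1.54, 2.22, 1.48 and 1.68 TPM with vehicle. Again all dexamethasone libraries were below the vehicle ones, with differences of -0.72 (SE 0.19) at 24 h (adjusted p = 0.00725) and -1.20 (SE 0.19) at 72 h (adjusted p = 4.86e-05). Its neighbour and relative Ifit2 was instead called higher at 24 h, at 10.9 ± 1.46 TPM with dexamethasone and 6.78 ± 0.939 TPM with vehicle (adjusted p = 0.00215). At 72 h Ifit2 averaged 10.5 ± 2.39 TPM with dexamethasone and 8.41 ± 1.59 TPM with vehicle and was not called (adjusted p = 0.0632), but was without both replicate 1 libraries (adjusted p = 0.0173). Ifit1, at low levels, was called at neither time (adjusted p = 0.975 at 24 h and adjusted p = 0.994 at 72 h).

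Sp100, Lgals3bp and Samd9l were called lower at 72 h and not at 24 h. Sp100, a nuclear body protein, averaged 1.15 ± 0.628 TPM with dexamethasone and 2.28 ± 0.533 TPM with vehicle at 72 h (adjusted p = 0.0133). At 24 h Sp100 averaged 2.50 ± 0.183 TPM with dexamethasone and 2.17 ± 0.489 TPM with vehicle (adjusted p = 0.793). Lgals3bp, a secreted galectin-binding glycoprotein, averaged 8.50 ± 4.04 TPM with dexamethasone and 14.2 ± 3.34 TPM with vehicle at 72 h (adjusted p = 0.0324). At 24 h Lgals3bp averaged 9.83 ± 2.42 TPM with dexamethasone and 13.9 ± 2.97 TPM with vehicle (adjusted p = 0.099, or adjusted p = 0.0409 with the replicate block). Samd9l, a brake on translation, had 4.52, 1.74, 2.67 and 1.91 TPM with dexamethasone, against 4.5, 5.36, 3.75 and 3.99 TPM with vehicle at 72 h (adjusted p = 0.0097). The 3 genes share 1 feature, a dexamethasone replicate 1 library within the vehicle range, and each was still called lower without both replicate 1 libraries, with differences of -0.85, -0.67 and -0.68 on the log2 scale. Leaving out dexamethasone replicate 2 alone lost each of these calls (adjusted p = 0.0687 for Sp100, 0.123 for Lgals3bp and 0.053 for Samd9l). Lgals3bp was also lost without dexamethasone replicate 4 (adjusted p = 0.128) and without vehicle replicate 1, 2 or 4 (0.09, 0.0743 and 0.0826).

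The remaining effectors were not called at either time with all libraries. Bst2 (tetherin, which holds budding virus at the membrane) averaged 12.1 ± 2.54 TPM with dexamethasone and 11.6 ± 0.894 TPM with vehicle at 72 h (adjusted p = 0.802). Oasl2, an oligoadenylate synthetase relative, was highest in replicate 1 of every myotube group, such as 0.484, 0.0653, 0.0532 and 0.117 against 0.752, 0.160, 0.173 and 0.269 TPM at 72 h in dexamethasone and vehicle libraries (adjusted p = 0.314). Ifi35, an induced leucine zipper protein, averaged 33.7 ± 3.06 TPM with dexamethasone and 27.7 ± 2.90 TPM with vehicle at 72 h, with adjusted p = 0.0545, or adjusted p = 0.0197 and higher with the replicate block. Without both replicate 1 libraries Ifi35 was called higher too (adjusted p = 0.0421). Mx2 and Rsad2 reached at most 0.709 and 0.170 TPM in the dexamethasone and vehicle libraries.

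The Isg15, ubiquitin and ADP-ribose group had 3 of 6 tested members lower and 1 higher at 24 h, and 5 lower and 0 higher at 72 h, when its median difference was -0.72. Isg15, a ubiquitin-like protein joined to other proteins in the interferon response, had 3.13, 2.00, 2.67 and 1.38 TPM with dexamethasone, against 7.06, 4.02, 5.75 and 4.92 TPM with vehicle at 24 h. At 72 h Isg15 had 2.80, 0.462, 0.502 and 0.439 TPM with dexamethasone, against 6.31, 5.70, 3.14 and 5.27 TPM with vehicle. At 72 h dexamethasone replicate 1 stood above the other 3, which lay close together, and all 4 were below the vehicle range. Isg15 was 2.37-fold lower at 24 h (adjusted p = 0.0138) and 4.86-fold lower at 72 h (adjusted p = 0.000107). Without both replicate 1 libraries at 72 h the Isg15 means were 0.467 ± 0.0317 TPM with dexamethasone and 4.70 ± 1.37 TPM with vehicle (SD, n = 3, limma adjusted p = 2.21e-06). Without dexamethasone replicate 4 the 24 h call was lost (adjusted p = 0.0639).

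Parp9 and Dtx3l form a complex that ADP-ribosylates and ubiquitinates proteins, and both were lower with dexamethasone. Parp9 had 4.47, 5.29, 4.42 and 4.38 TPM with dexamethasone, against 5.48, 9.77, 8.28 and 9.19 TPM with vehicle at 24 h. At 72 h Parp9 had 3.68, 2.60, 2.41 and 1.90 TPM with dexamethasone, against 5.71, 10.0, 5.92 and 8.59 TPM with vehicle. Its groups did not overlap, and it was 1.76-fold lower at 24 h (adjusted p = 0.00254) and 2.86-fold lower at 72 h (adjusted p = 1.61e-05). Dtx3l had 3.04, 3.19, 2.96 and 3.48 TPM with dexamethasone, against 2.80, 5.30, 3.70 and 5.16 TPM with vehicle at 24 h. At 72 h Dtx3l had 2.73, 2.27, 2.30 and 1.65 TPM with dexamethasone, against 3.99, 6.62, 5.57 and 4.80 TPM with vehicle. Vehicle replicate 1 was the lowest vehicle library at both times and lay within the dexamethasone range at 24 h. Dtx3l was 2.35-fold lower at 72 h (adjusted p = 3.01e-05). Its 24 h call was at the threshold (adjusted p = 0.0495, 1.34-fold lower) and was kept when vehicle replicate 1 was left out, but it was lost on leaving out any other library at 24 h (adjusted p = 0.0746 to 0.151).

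Parp12 and Parp14, which attach single ADP-ribose units, were lower at 72 h. Parp12 averaged 8.97 ± 1.16 TPM with dexamethasone and 12.5 ± 1.80 TPM with vehicle (adjusted p = 0.000887), against adjusted p = 0.319 at 24 h with means of 11.8 ± 0.560 against 12.0 ± 0.813 TPM. Parp14 averaged 0.428 ± 0.116 TPM with dexamethasone and 0.828 ± 0.152 TPM with vehicle (adjusted p = 0.00186), while at 24 h it averaged 0.988 ± 0.197 TPM with dexamethasone and 0.635 ± 0.158 TPM with vehicle (adjusted p = 0.059). Trim25, a ubiquitin ligase of the RIG-I pathway, was called higher at 24 h, at 9.74 ± 1.31 TPM with dexamethasone and 7.11 ± 0.597 TPM with vehicle (adjusted p = 0.011). Without dexamethasone replicate 1 that call was lost (adjusted p = 0.051). At 72 h it averaged 9.21 ± 0.912 TPM with dexamethasone and 7.86 ± 0.798 TPM with vehicle (adjusted p = 0.0532).

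Of 5 interferon-induced GTPases, 2 were called lower and 1 higher at 24 h, and 3 lower and 1 higher at 72 h. Irgm1, which controls the immunity-related GTPases of mouse cells, had 11.2, 9.90, 9.89 and 12.1 TPM with dexamethasone, against 17.8, 16.2, 15.3 and 16.7 TPM with vehicle at 24 h. At 72 h Irgm1 had 11.9, 10.6, 11.4 and 9.93 TPM with dexamethasone, against 19.9, 18.7, 15.4 and 18.4 TPM with vehicle. All dexamethasone libraries were below all vehicle libraries, and Irgm1 was 1.53-fold lower at 24 h (adjusted p = 0.000233) and 1.65-fold lower at 72 h (adjusted p = 0.000195).

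Igtp, another GTPase of the same mouse family, was higher instead, with 3.58, 2.44, 1.89 and 3.14 TPM with dexamethasone, against 1.68, 1.5, 1.12 and 1.91 TPM with vehicle at 24 h. At 72 h Igtp had 3.49, 2.45, 4.52 and 2.96 TPM with dexamethasone, against 2.43, 1.69, 2.01 and 1.65 TPM with vehicle. The ranges overlapped at 24 h and were apart at 72 h, where vehicle replicate 1 came closest, and Igtp was 1.78-fold higher at 24 h (adjusted p = 0.023) and 1.73-fold at 72 h (adjusted p = 0.00837). The 24 h call was lost without dexamethasone replicate 1 or 4, or vehicle replicate 3 (adjusted p = 0.0886, 0.0705 and 0.0962).

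Gbp2, a guanylate-binding protein that coats vacuoles of pathogens, had 0.699, 0.426, 0.553 and 0.491 TPM with dexamethasone, against 0.860, 1.07, 0.872 and 0.930 TPM with vehicle at 24 h. At 72 h Gbp2 had 0.605, 0.289, 0.309 and 0.297 TPM with dexamethasone, against 0.937, 1.55, 0.605 and 1.19 TPM with vehicle. Every dexamethasone library was lower than every vehicle library of its time, although at 72 h dexamethasone replicate 1 almost met the lowest vehicle library. The differences were -0.58 (SE 0.18) at 24 h (adjusted p = 0.0202) and -0.92 (SE 0.18) at 72 h (adjusted p = 0.000408). At 24 h the call was lost without dexamethasone replicate 2 or 4 (adjusted p = 0.0599 and 0.0632).

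Gbp7, another guanylate-binding protein, reached at most 0.432 TPM in any library and was called lower at 72 h (0.332, 0.136, 0.140 and 0.0157 against 0.328, 0.418, 0.238 and 0.251 TPM in dexamethasone and vehicle libraries, adjusted p = 0.0334). Leaving out any 1 of dexamethasone replicates 2, 3 and 4 or vehicle replicates 1 and 2 lost that call (adjusted p = 0.0528 to 0.174), while it held without both replicate 1 libraries (adjusted p = 0.00401). Gbp3 was called at neither time (adjusted p = 0.0795 at 72 h), except with the replicate block at 72 h (adjusted p = 0.024) or without both replicate 1 libraries (adjusted p = 0.0203), when it was lower.

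Class I antigen presentation showed 2 of 7 members lower at 24 h and 5 of 7 at 72 h, none higher, with a median difference of -0.46 at 72 h. Tapbp, or tapasin, which holds the class I heavy chain to the peptide transporter, had 44.9, 43.0, 35.9 and 41.7 TPM with dexamethasone, against 46.7, 75.7, 65.1 and 70.0 TPM with vehicle at 24 h. At 72 h Tapbp had 32.8, 23.2, 27.0 and 19.3 TPM with dexamethasone, against 54.2, 68.2, 52.5 and 66.8 TPM with vehicle. The groups did not overlap, even with vehicle replicate 1 the lowest vehicle library at 24 h. Tapbp was 1.55-fold lower at 24 h (adjusted p = 0.000389) and 2.37-fold lower at 72 h (adjusted p = 1.03e-06), or 2.70-fold without both replicate 1 libraries.

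B2m, the light chain shared by all class I molecules, had 671, 509, 528 and 530.5 TPM with dexamethasone, against 621, 708, 640.1 and 779.6 TPM with vehicle at 24 h. At 72 h B2m had 549.5, 383, 427 and 374 TPM with dexamethasone, against 685, 699, 633 and 680.2 TPM with vehicle. Dexamethasone replicate 1 overlapped vehicle at 24 h, and at 72 h it was the highest of its group yet below every vehicle library. B2m was 1.23-fold lower at 24 h (adjusted p = 0.0211) and 1.56-fold lower at 72 h (adjusted p = 0.000592). The 24 h call was lost without dexamethasone replicate 2 or 4 or vehicle replicate 4 (adjusted p = 0.0592, 0.0764 and 0.0674).

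The heavy chains were called at 72 h. H2-K1 had 54.1, 42.3, 46.7 and 34.1 TPM with dexamethasone, against 65.7, 75.1, 67.7 and 76.7 TPM with vehicle at 72 h, and H2-D1 had 46.6, 33.4, 37.0 and 28.9 TPM with dexamethasone, against 57.7, 66.7, 59.7 and 68.5 TPM with vehicle. No dexamethasone library reached the vehicle range for either gene. H2-K1 was 1.61-fold lower (adjusted p = 0.000412) and H2-D1 1.73-fold lower (adjusted p = 0.000105), and leaving out both replicate 1 libraries gave 1.78-fold and 1.96-fold. At 24 h the means were 68.1 ± 6.39 against 75.2 ± 13.4 TPM for H2-K1 (adjusted p = 0.185) and 56.8 ± 4.07 against 65.8 ± 11.5 TPM for H2-D1 (adjusted p = 0.0891), with overlapping ranges. The heavy chain genes are highly alike and differ between mouse strains, so the split of reads between H2-K1, H2-D1 and their relatives is uncertain.

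Of the genes that load peptides, Tap2 had 10.8, 5.87, 8.29 and 4.64 TPM with dexamethasone, against 11.8, 14.2, 11.8 and 11.5 TPM with vehicle at 72 h and was 1.67-fold lower (adjusted p = 0.0048), with no overlap, and at 24 h it differed by -0.03 (adjusted p = 0.907). Its partner Tap1 averaged 2.34 ± 0.635 TPM with dexamethasone and 2.45 ± 0.436 TPM with vehicle at 72 h (adjusted p = 0.842). At 24 h Tap1 averaged 3.00 ± 0.655 TPM with dexamethasone and 1.99 ± 0.346 TPM with vehicle (adjusted p = 0.0871). Nlrc5, the transactivator of class I genes, averaged 0.241 ± 0.113 TPM with dexamethasone and 0.168 ± 0.0815 TPM with vehicle at 72 h (adjusted p = 0.521), and its lowest library was replicate 1 in each of the 5 myotube groups.

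Since the replicate 1 libraries at 72 h stood apart, the 72 h differences were also taken without them, and all 24 calls made with every library were kept. On the log2 scale of the table, the difference without both libraries and then with all was -1.81 and -1.55 for Isg15, -1.18 and -0.99 for Parp9, -0.97 and -0.82 for Dtx3l, -0.38 and -0.30 for Parp12, and -0.77 and -0.63 for Parp14. It was -2.65 and -2.29 for Zbp1, 0.89 and 0.90 for Ifi204, -0.89 and -0.75 for Xaf1, -0.46 and -0.40 for Ifi27, and -1.37 and -1.20 for Ifit3. The GTPases gave -0.47 and -0.47 for Irgm1, 0.60 and 0.55 for Igtp, -1.10 and -0.92 for Gbp2, and -1.03 and -0.77 for Gbp7. For class I genes the values were -0.50 and -0.43 for B2m, and -0.68 and -0.53 for Tap2. Without the replicate 1 libraries the difference was about the same for Ifi204 and Irgm1 and larger for the others. Both libraries were set apart because they lean to the opposite group, so larger differences without them follow in part from that choice.

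**Figure D3:**
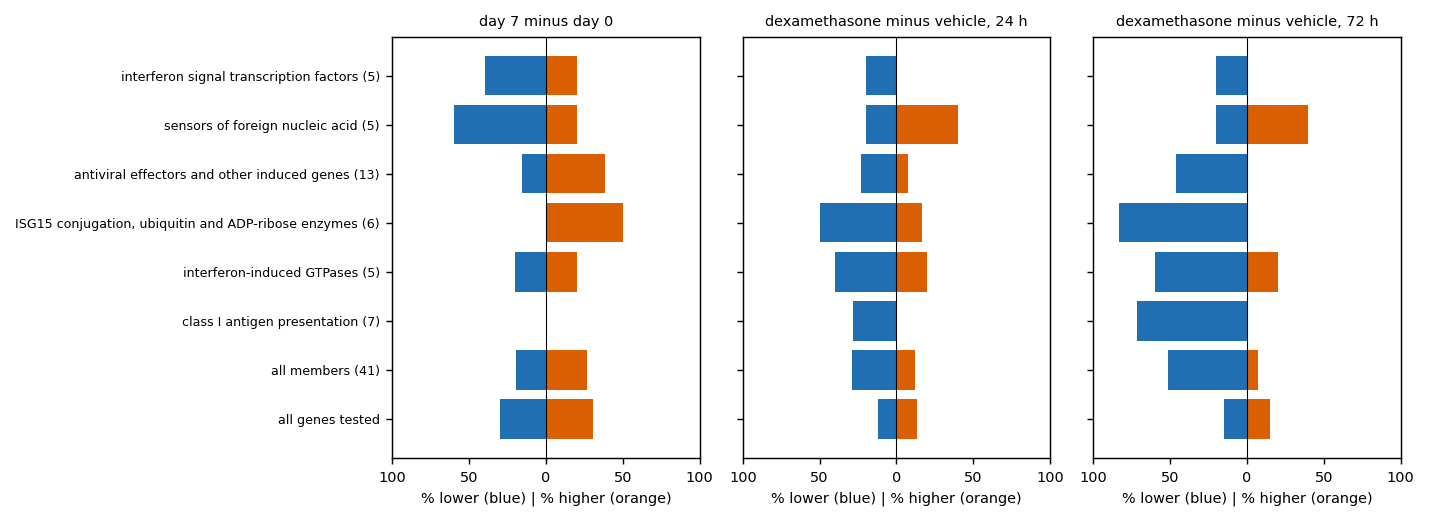
Percentage of tested members of each role called lower (blue, to the left) and higher (orange, to the right) in 3 comparisons, with the number tested in parentheses, beside all members and all genes tested. At 72 h of dexamethasone, 5 of 6 Isg15-related genes and 5 of 7 class I genes were lower, and in differentiation 0 of 7 class I genes were called.

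The responses at the 2 times were then compared directly, as the dexamethasone difference at 72 h minus that at 24 h. Of 41 members, 3 were called more negative at 72 h and 0 more positive, where 5.77% and 5.56% of all genes were called. With limma at an unadjusted p below 0.05, 13 were more negative and 1 more positive, and the share of all genes at that threshold was not counted. The 3 were Parp14 (difference -1.0, adjusted p = 0.00265), Gbp7 (-1.36, adjusted p = 0.0214) and Samd9l (-0.72, adjusted p = 0.023). Each lay above vehicle on average at 24 h without being called there, and below it at 72 h. Parp14 had 0.915, 0.956, 0.811 and 1.27 against 0.530, 0.862, 0.524 and 0.625 TPM at 24 h and 0.565, 0.400, 0.460 and 0.287 against 0.708, 1.04, 0.833 and 0.728 TPM at 72 h, dexamethasone libraries against vehicle libraries. Samd9l had 5.38, 5.77, 4.36 and 5.24 against 4.21, 4.39, 3.15 and 3.91 TPM at 24 h, and Gbp7 had 0.432, 0.410, 0.247 and 0.361 against 0.140, 0.281, 0.104 and 0.207 TPM. The Samd9l call was lost without vehicle replicate 3 at 24 h, dexamethasone replicate 2 or 4 at 72 h or vehicle replicate 2 at 72 h (adjusted p = 0.0532 to 0.0628), and the Gbp7 call without vehicle replicate 3 at 24 h (adjusted p = 0.0528).

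The count depended on the libraries used, most of all on dexamethasone replicate 1 at 72 h. Without both replicate 1 libraries at 72 h, 15 members were called more negative and 0 more positive, where 8.71% and 6.46% of all genes were. Without dexamethasone replicate 1 alone, 14 members were called more negative. The 15 included 4 class I genes (Tapbp, Tap2, H2-K1 and H2-D1), 5 of the Isg15-related group (Isg15, Parp9, Parp12, Parp14 and Dtx3l), Stat2, Ifih1, Sp100, Samd9l, Gbp3 and Gbp7. The count was 5 without vehicle replicate 1 at 72 h or without vehicle replicate 2 at 24 h, and it was 1 without vehicle replicate 3 at 24 h. Irf1 and Irgm1 differed between times by 0.05 and 0.01 on the log2 scale and were called with neither set of libraries (adjusted p = 0.85 and 0.967 with all). With all libraries the change between times was -0.25 for Stat2, -0.01 for Irf3, -0.25 for Irf7, -0.02 for Irf9, -0.15 for B2m, -0.30 for H2-K1 and -0.32 for H2-D1.

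**Figure D4:**
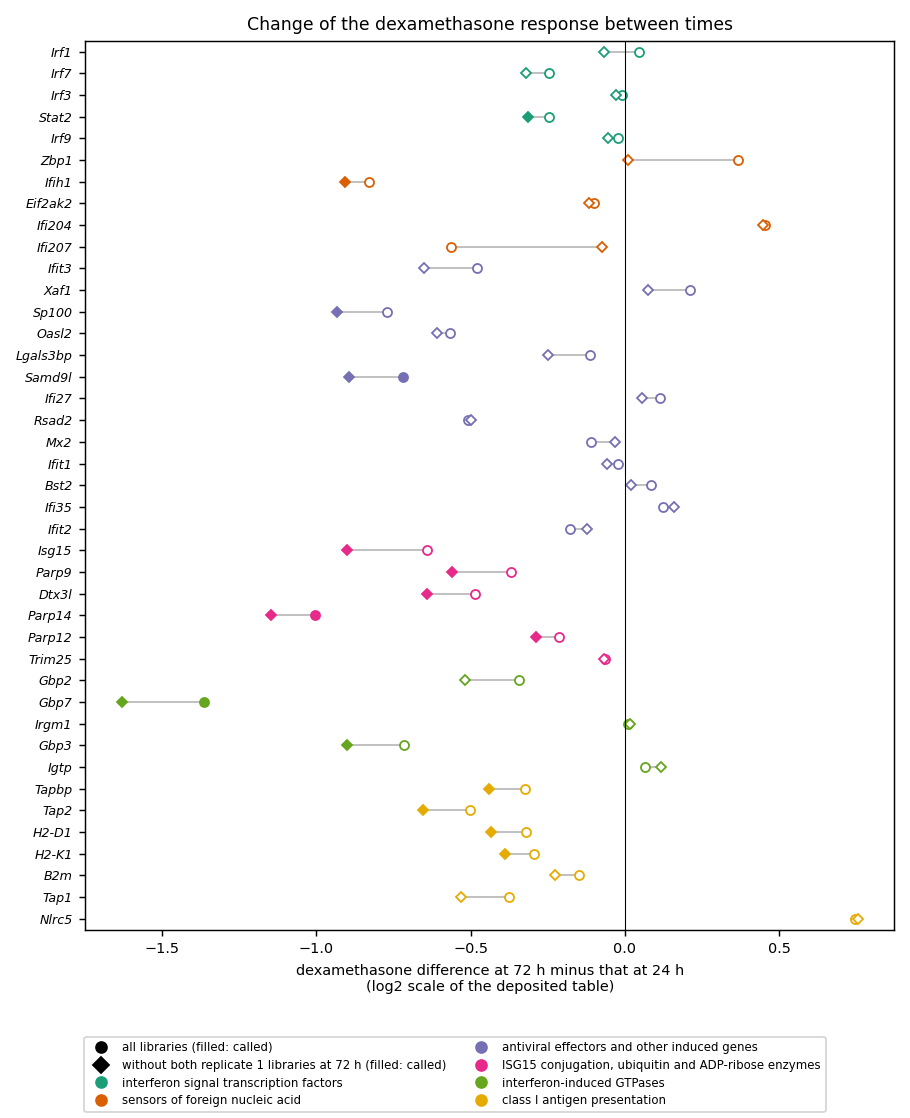
Dexamethasone difference at 72 h minus that at 24 h for each of the 41 tested members, in log2 units of the authors' table, from all libraries (circles) and without both replicate 1 libraries at 72 h (diamonds). Filled points were called; all libraries gave 3 called members and the reduced set 15, all left of 0.

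The effect of differentiation, set out as day 7 myotubes over day 0 myoblasts, cannot be told apart from that of serum, 2% in the myotubes and 10% in the myoblasts. Of 41 tested members, 11 were called higher and 8 lower, where 30.5% of all genes were called higher and 29.8% lower, and the median difference was 0.02 over the members beside 0.01 over all genes. Both shares of the members were below those of all genes, and no test of that was made. A fit on log2(TPM + 0.1) lost Irf9 and Parp14 (adjusted p = 0.0926 and 0.107), and quantile normalisation lost Stat2, Irf1, Irgm1, Igtp and Parp14 (0.486, 0.0951, 0.133, 0.0534 and 0.143). Over the 12737 genes used to compare the tables, the median difference was -0.11 on log2 TPM and -0.02 in the table of log2 values. Proliferation markers were all called lower (6 of 6), and 4 of 7 fibroblast markers were called higher.

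Zbp1 and Xaf1, both called lower with dexamethasone, were among the genes that rose most in differentiation. Zbp1 had 2.53, 6.31, 7.68 and 6.84 TPM in day 7 myotubes, against 0.207, 0.215, 0.0697 and 0.366 TPM in day 0 myoblasts. The groups were far apart, although replicate 1 was the lowest day 7 library, and the difference was 3.14 (SE 0.37) (adjusted p = 1.96e-07). Xaf1 had 15.4, 13.2, 18.4 and 19.2 TPM in day 7 myotubes, against 7.72, 5.01, 5.62 and 6.11 TPM in day 0 myoblasts, without overlap, and was 2.71-fold higher (adjusted p = 1.86e-07).

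Parp9 had 6.39, 10.2, 9.65 and 10.3 TPM in day 7 myotubes, against 3.66, 3.67, 4.42 and 4.29 TPM in day 0 myoblasts, all day 7 libraries above all day 0 ones, and was 2.28-fold higher (adjusted p = 1.41e-05). Its partner Dtx3l averaged 4.17 ± 0.936 TPM in day 7 myotubes and 2.40 ± 0.354 TPM in day 0 myoblasts (adjusted p = 0.000272), and Parp14 averaged 0.618 ± 0.123 TPM in day 7 myotubes and 0.436 ± 0.134 TPM in day 0 myoblasts (adjusted p = 0.0187). The Parp14 call was lost without day 0 replicate 1 or 2 or day 7 replicate 4 (adjusted p = 0.0599, 0.0803 and 0.0541). Isg15 averaged 6.57 ± 1.85 TPM in day 7 myotubes and 3.91 ± 0.953 TPM in day 0 myoblasts without overlap. It was not called (adjusted p = 0.0622), but was with the replicate number as a block (adjusted p = 0.016).

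Ifi27 averaged 177 ± 7.25 TPM in day 7 myotubes and 110.5 ± 8.54 TPM in day 0 myoblasts, 1.60-fold higher (adjusted p = 1.23e-05), and Bst2 averaged 13.1 ± 0.50 TPM in day 7 myotubes and 9.95 ± 0.956 TPM in day 0 myoblasts (adjusted p = 0.0112, or adjusted p = 0.0503 without day 0 replicate 1). Ifit3 averaged 1.31 ± 0.606 TPM in day 7 myotubes and 0.388 ± 0.0655 TPM in day 0 myoblasts (adjusted p = 3.18e-05). Mx2 averaged 0.244 ± 0.0691 TPM in day 7 myotubes and 0.0270 ± 0.0220 TPM in day 0 myoblasts (adjusted p = 2.27e-06), so its rise was at a very low level. Igtp was 1.90-fold higher (adjusted p = 0.00147), at 1.23 ± 0.240 TPM in day 7 myotubes and 0.650 ± 0.122 TPM in day 0 myoblasts. Irf9 averaged 5.34 ± 0.171 TPM in day 7 myotubes and 4.44 ± 0.509 TPM in day 0 myoblasts (adjusted p = 0.0261), and that call was lost without day 0 replicate 3 or 4 or day 7 replicate 1 or 2 (adjusted p = 0.0563 to 0.088).

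Irf3 and Irf7 were not called, at 33.1 ± 0.949 TPM in day 7 myotubes and 36.4 ± 2.08 TPM in day 0 myoblasts for Irf3 (adjusted p = 0.631), and 0.718 ± 0.116 TPM in day 7 myotubes and 0.624 ± 0.196 TPM in day 0 myoblasts for Irf7 (adjusted p = 0.231).

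The genes that fell include sensors and effectors. Ifi204 had 16.7, 11.2, 12.8 and 12.4 TPM in day 7 myotubes, against 30.4, 34.4, 37.6 and 34.4 TPM in day 0 myoblasts. All day 7 libraries were lower, and Ifi204 was 2.57-fold lower (adjusted p = 1.62e-05). Eif2ak2 averaged 8.02 ± 1.15 TPM in day 7 myotubes and 13.1 ± 2.04 TPM in day 0 myoblasts, 1.63-fold lower (adjusted p = 7.91e-05). Oasl2 averaged 0.333 ± 0.292 TPM in day 7 myotubes and 1.07 ± 0.315 TPM in day 0 myoblasts (adjusted p = 0.00963) and Rsad2 0.0460 ± 0.0143 TPM in day 7 myotubes and 0.323 ± 0.105 TPM in day 0 myoblasts (adjusted p = 3.23e-06).

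The calls of 4 other members that fell were less stable. Irf1 had 23.7, 17.1, 20.0 and 18.6 TPM in day 7 myotubes, against 29.8, 23.2, 25.7 and 28.0 TPM in day 0 myoblasts and was 1.34-fold lower (adjusted p = 0.0179), with a single overlap. Irgm1 averaged 18.1 ± 3.92 TPM in day 7 myotubes and 24.1 ± 3.47 TPM in day 0 myoblasts (adjusted p = 0.0178), Stat2 5.88 ± 0.730 TPM in day 7 myotubes and 7.38 ± 1.18 TPM in day 0 myoblasts (adjusted p = 0.0225) and Ifih1 0.537 ± 0.111 TPM in day 7 myotubes and 1.10 ± 0.456 TPM in day 0 myoblasts (adjusted p = 0.0305). Each was lost on leaving out single libraries: Irf1 without day 0 replicate 4 or day 7 replicate 2 or 4 (adjusted p = 0.052 to 0.0549), Irgm1 without day 0 replicate 1 or day 7 replicate 2 or 3 (0.0569 to 0.0745), Stat2 without day 0 replicate 1 or day 7 replicate 2 (0.0949 and 0.0851), and Ifih1 without day 0 replicate 1 or 4 or day 7 replicate 3 or 4 (0.0759 to 0.116). Without day 7 replicate 2 the count of members called lower was 5, in place of 8.

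None of the 7 class I genes was called, with B2m at 632 ± 57.0 TPM in day 7 myotubes and 666 ± 116 TPM in day 0 myoblasts (adjusted p = 0.896), H2-K1 at 67.0 ± 8.68 TPM in day 7 myotubes and 79.5 ± 12.5 TPM in day 0 myoblasts (adjusted p = 0.297) and H2-D1 at 60.7 ± 6.49 TPM in day 7 myotubes and 63.3 ± 9.61 TPM in day 0 myoblasts (adjusted p = 0.848). Their ranges overlapped, and a miss of the threshold does not show that levels were equal. Of the 11 members called higher in differentiation, 7 were called lower with dexamethasone at 72 h, where 21 of all 41 tested members were. The 7 were Dtx3l, Ifi27, Ifit3, Parp14, Parp9, Xaf1 and Zbp1, and 1 other, Igtp, was called higher (1 of 3). Of the 8 called lower in differentiation, Irf1 and Irgm1 were also lower with dexamethasone at 72 h, and Ifi204 was higher. These 2 comparisons share no library, and the like overlaps over all genes were not counted.

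**Figure D5:**
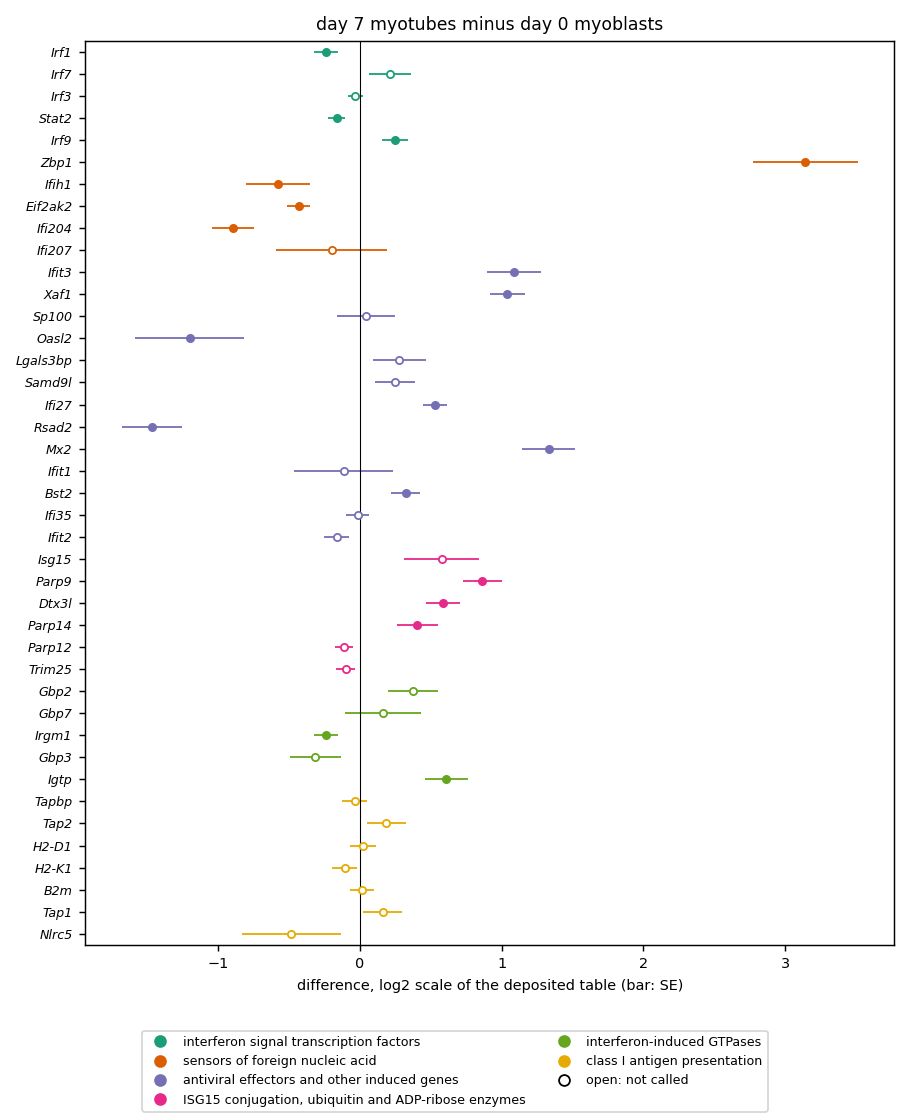
Difference between day 7 myotubes and day 0 myoblasts for the 41 tested members, in log2 units of the authors' table with SE, filled where called and coloured by role. Zbp1 (3.14), Mx2 (1.33) and Ifit3 (1.09) lie farthest right, Rsad2 (-1.47) and Oasl2 (-1.20) farthest left, and the class I genes around 0 are open.

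Vehicle groups were compared to describe change over time without dexamethasone, where the step to vehicle at 24 h from day 7 includes both a day in culture and the vehicle itself. Vehicle at 24 h against day 7 gave 0 members higher and 0 lower with limma, where 0.0984% and 0.111% of all genes were called. At an unadjusted p below 0.05, 2 were higher and 1 lower. The share of all genes at that threshold was not counted in either vehicle comparison. A limma fit on log2(TPM + 0.1) also gave 0 and 0, where 0.0131% of all genes were called in each direction. Vehicle at 72 h against 24 h gave 0 higher and 1 lower, where 2.67% and 1.69% of all genes were called, and 2 and 4 at an unadjusted p below 0.05. The 1 was Ifi27, with 144, 156, 120.0 and 155 TPM in vehicle at 72 h, against 194, 165, 196 and 168 TPM in vehicle at 24 h (adjusted p = 0.0388), and it was lost without vehicle replicate 1 or 3 at 24 h or vehicle replicate 1, 2 or 3 at 72 h (adjusted p = 0.061 to 0.18). Among the factors, Irf1 averaged 21.2 ± 3.34 TPM in vehicle at 72 h and 18.6 ± 1.92 TPM in vehicle at 24 h (adjusted p = 0.849), and Stat2 5.98 ± 0.579 TPM in vehicle at 72 h and 5.30 ± 0.288 TPM in vehicle at 24 h (adjusted p = 0.856). Irf3, Irf7 and Irf9 differed by -0.17, -0.27 and -0.14 on the log2 scale in that comparison. Of the class I genes, B2m averaged 674 ± 28.6 TPM in vehicle at 72 h and 687 ± 72.0 TPM in vehicle at 24 h (adjusted p = 0.459), H2-K1 71.3 ± 5.39 TPM in vehicle at 72 h and 75.2 ± 13.4 TPM in vehicle at 24 h (adjusted p = 0.351) and H2-D1 63.1 ± 5.23 TPM in vehicle at 72 h and 65.8 ± 11.5 TPM in vehicle at 24 h (adjusted p = 0.403). Between vehicle at 24 h and day 7, B2m, H2-K1 and H2-D1 differed by 0.10, 0.13 and 0.09, and Stat2, Irf1, Irf3, Irf7 and Irf9 by -0.08, -0.05, 0.12, -0.20 and -0.13.

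Genes around the members in the same pathway were counted by the same fit, and each count can be read against the percentages of all genes given above for its comparison. Interferon genes themselves were near the floor: Ifnb1 and Ifnk were listed at 0 TPM on average with dexamethasone and with vehicle at 72 h, and Ifng averaged 0.0798 TPM with dexamethasone and 0.250 TPM with vehicle. Of 21 tested receptors, kinases, Stats and brakes, 7 were lower and 2 higher at 72 h, with a median difference of -0.18. The lower ones were all 4 interferon receptor chains, the shared chain Il10rb, the feedback inhibitor Socs3 and Irf2bpl, a relative of Irf2-binding proteins. Ifnar2, a type I receptor chain, averaged 28.9 ± 1.29 TPM with dexamethasone and 47.2 ± 4.39 TPM with vehicle, 1.63-fold lower (adjusted p = 2.73e-06). Ifngr2, a chain of the interferon gamma receptor, averaged 22.7 ± 6.40 TPM with dexamethasone and 33.5 ± 3.77 TPM with vehicle (adjusted p = 0.016), and Socs3 averaged 16.9 ± 6.42 TPM with dexamethasone and 28.6 ± 5.98 TPM with vehicle (adjusted p = 0.00816). Irf2, which competes with Irf1 for its sites, was instead higher at both times. It averaged 31.5 ± 3.16 TPM with dexamethasone and 12.5 ± 1.95 TPM with vehicle at 24 h, 2.52-fold higher (adjusted p = 2.70e-07), and 25.3 ± 5.53 TPM with dexamethasone and 17.1 ± 1.87 TPM with vehicle at 72 h (adjusted p = 0.00139). At 24 h the same list had 2 lower and 2 higher.

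Among 17 sensors, adaptors and kinases, 2 were higher and 0 lower at 24 h, and 3 higher and 3 lower at 72 h. Rnf125, a ubiquitin ligase that marks RIG-I for degradation, averaged 8.34 ± 4.55 TPM with dexamethasone and 0.737 ± 0.350 TPM with vehicle at 24 h, 11.3-fold higher (adjusted p = 1.26e-06), and 2.21 ± 1.04 TPM with dexamethasone and 0.799 ± 0.298 TPM with vehicle at 72 h (adjusted p = 0.0118). Ddx58 itself, which encodes RIG-I, averaged 2.74 ± 0.789 TPM with dexamethasone and 5.08 ± 0.683 TPM with vehicle at 72 h, 1.85-fold lower (adjusted p = 6.54e-05). The DNA sensor Cgas averaged 2.92 ± 0.579 TPM with dexamethasone and 1.29 ± 0.210 TPM with vehicle at 72 h, 2.26-fold higher (adjusted p = 1.08e-06), and Samhd1, which depletes nucleotides, was 3.23-fold higher at 24 h (adjusted p = 2.67e-07). In differentiation 9 of the 17 were lower and 0 higher, among them Cgas (1.54 ± 0.132 TPM in day 7 myotubes and 4.34 ± 0.421 TPM in day 0 myoblasts, adjusted p = 3.82e-09) and Samhd1 (18.9 ± 1.56 TPM in day 7 myotubes and 54.3 ± 15.8 TPM in day 0 myoblasts, adjusted p = 8.77e-08).

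Of 47 other tested interferon-stimulated genes, out of 68 listed, 16 were lower and 2 higher at 24 h, and 19 lower and 5 higher at 72 h, with median differences of -0.20 and -0.32. Apol9a and Apol9b, apolipoprotein L genes of the mouse, were both lower at 24 h. Apol9a averaged 0.764 ± 0.321 TPM with dexamethasone and 5.65 ± 1.48 TPM with vehicle (adjusted p = 2.31e-07), and Apol9b averaged 2.41 ± 2.21 TPM with dexamethasone and 13.1 ± 6.18 TPM with vehicle (adjusted p = 3.84e-05). The 2 genes are near copies, so their split is uncertain. Ifi47, a GTPase of the Irgm1 family, averaged 0.461 ± 0.127 TPM with dexamethasone and 2.31 ± 0.463 TPM with vehicle at 24 h (adjusted p = 1.04e-06). At 72 h Uba7, the enzyme that activates Isg15, averaged 0.301 ± 0.282 TPM with dexamethasone and 1.09 ± 0.185 TPM with vehicle (adjusted p = 0.000281), and Ifit3b, a copy of Ifit3, 0.0350 ± 0.0199 TPM with dexamethasone and 0.437 ± 0.178 TPM with vehicle (adjusted p = 5.94e-06). Slfn9, a Schlafen family gene, was higher, at 1.20 ± 0.586 TPM with dexamethasone and 0.274 ± 0.111 TPM with vehicle (adjusted p = 0.000265).

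The same list had 16 genes higher and 12 lower in differentiation. It holds 7 guanylate-binding genes outside the member set, of which 6 were tested. In differentiation 6 of the 6 were called higher, and with dexamethasone 5 of 6 were called lower at 24 h and 5 of 6 at 72 h. Gbp8 averaged 6.51 ± 1.12 TPM in day 7 myotubes and 0.0787 ± 0.0189 TPM in day 0 myoblasts (adjusted p = 2.02e-10), Gbp10 2.94 ± 0.594 TPM in day 7 myotubes and 0.0896 ± 0.0487 TPM in day 0 myoblasts (adjusted p = 1.07e-10), Gbp9 4.49 ± 0.457 TPM in day 7 myotubes and 0.309 ± 0.112 TPM in day 0 myoblasts (adjusted p = 1.09e-08) and Gbp4 2.73 ± 0.871 TPM in day 7 myotubes and 0.165 ± 0.117 TPM in day 0 myoblasts (adjusted p = 4.46e-06). Gbp8, Gbp9 and Gbp10 were called lower with dexamethasone at both times, Gbp8 at 2.09 ± 1.13 TPM with dexamethasone and 5.99 ± 2.07 TPM with vehicle at 72 h (adjusted p = 0.002). These genes are highly alike, so reads may be shared among them.

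Of 19 immunoproteasome, peptide loading and other class I genes, 5 were lower and 2 higher at 24 h, and 10 lower and 0 higher at 72 h, with a median difference of -0.32 at 72 h beside 0.01 over all genes. Mr1, which presents microbial vitamin metabolites, averaged 9.91 ± 3.50 TPM with dexamethasone and 21.7 ± 2.48 TPM with vehicle at 72 h, 2.19-fold lower (adjusted p = 1.52e-05). H2-M3, which presents bacterial formyl peptides, averaged 2.68 ± 1.18 TPM with dexamethasone and 5.38 ± 0.950 TPM with vehicle (adjusted p = 0.000673), and the nonclassical heavy chains H2-T22 and H2-T23 were 1.93-fold and 1.83-fold lower (adjusted p = 0.000282 and adjusted p = 0.000379). At 24 h the proteasome activators Psme2 and Psme1 were 1.68-fold and 1.43-fold lower (adjusted p = 0.000532 and adjusted p = 0.00792). In differentiation H2-T23 and Mr1 were both 1.76-fold higher (adjusted p = 9.01e-05 and adjusted p = 4.13e-05). Of 5 tested class II genes, 2 were lower at 24 h, and 1 lower and 1 higher at 72 h. Cd74, the invariant chain, averaged 0.0810 ± 0.0148 TPM with dexamethasone and 0.171 ± 0.0298 TPM with vehicle at 24 h (adjusted p = 0.0229).

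Without both replicate 1 libraries at 72 h, the wider lists gave 9 lower and 1 higher of the 21 tested ligand, receptor, kinase and brake genes, in place of 7 and 2. They gave 4 lower and 2 higher of the 17 sensors, 17 lower and 4 higher of the 47 other interferon-stimulated genes, 11 lower and 0 higher of the 19 class I genes, and 1 lower and 1 higher of the 5 class II genes. Of the genes named at 72 h, Rnf125 was no longer called (adjusted p = 0.0721), at 1.90 TPM with dexamethasone and 0.836 TPM with vehicle. Uba7 averaged 0.164 TPM with dexamethasone and 1.03 TPM with vehicle (adjusted p = 7.10e-06). Mr1, H2-M3, H2-T22 and H2-T23 were 2.69-fold, 2.59-fold, 2.27-fold and 2.07-fold lower, Socs3 2.09-fold, Ifnar2 1.72-fold, Ifngr2 1.62-fold, Ddx58 2.20-fold and Gbp8 2.53-fold. Cgas was 2.47-fold higher and Irf2 1.42-fold. Ifit3b had a difference of -1.57 and Slfn9 one of 1.58 on the log2 scale, and both were still called.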

How the data were processed

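RNA of C2C12 myoblasts and myotubes was sequenced in 24 libraries, 6 groups of 4, from a stranded poly(A) kit, per the labels' protocols. The submitters' processing notes name the build GRCm39 and the tools Salmon, DESeq and kallisto 0.51.1, without a role or order. The authors deposited 2 tables of 48544 genes: TPM values, and log2-scale values whose normalisation is not given in the sources used here. Read depth is therefore unknown. Between 12428 and 13030 genes a library reached 1 TPM.

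Genes that reached a linear normalised value of 10 in 4 or more libraries (16257 genes) were fitted with limma-trend 3.58.1 in R 4.3.3, on the deposited log2 values, with a mean for each group over all 24 libraries and Benjamini-Hochberg adjustment over all genes. The fit was also run on simulated data with independent noise in each library, which does not cover libraries that deviate together. A fold is 1 mean TPM over the other, and none is given where the lower mean is under 0.5 TPM. TPM was also fitted as log2(TPM + 0.1) and log2(TPM + 1) for genes with 0.5 TPM or more in 4 libraries (15250 genes). Other alternatives were quantile normalisation, no filter (30356 genes), a stricter filter at 50 (13546 genes), a fit of the groups compared alone, library weights, the replicate number as a block, leaving out each library, and leaving out both replicate 1 libraries at 72 h.

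Same-numbered libraries deviated together in differentiation (r over genes 0.145 to 0.212 in the 4 pairs), at 24 h (0.201 to 0.391) and at 72 h (0.117 to 0.338), a pairing that comes from the data and that no label states. Tables were handled with Python 3.11.15, pandas 2.3.3 and numpy 2.4.6.

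The members and lists were chosen with earlier results of these data known. By the rule for naming, values are given for called members and, in every comparison, for Stat2, Irf1, Irf3, Irf7, Irf9, B2m, H2-K1 and H2-D1, and for at most 4 called genes of each wider pathway list. Members named outside that rule were chosen after their values were seen.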

Additional observations from a re-analysis of the deposited data

Results flagged for a closer look

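In 246 groups of 4 libraries, 1 value for each tested member and group, 16 groups held a library whose gap to the nearest other was a larger share of the group's range than Dixon's critical value, where chance gives about 1 in 20. Of these 16 libraries 10 were replicate 1. In day 0 myoblasts, Irf9 was high in replicate 1 (5.19 TPM, others 4.13 to 4.29) and Igtp low in replicate 2 (0.467 TPM, others 0.702 to 0.721). In day 7 myotubes, replicate 1 was high for Oasl2 (0.770 TPM, others 0.163 to 0.222) and Lgals3bp (18.9 TPM, others 9.56 to 11.0), and low for Parp9 (6.39 TPM, others 9.65 to 10.3). With dexamethasone at 24 h, B2m was high in replicate 1 (671 TPM, others 509 to 531), Parp9 in replicate 2 (5.29 TPM, others 4.38 to 4.47) and Mx2 in replicate 4 (0.537 TPM, others 0.281 to 0.299).

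At 72 h most such libraries were replicate 1, the pair that stood apart. With dexamethasone, replicate 1 was high for Ifih1 (0.702 TPM, others 0.211 to 0.293), Oasl2 (0.484 TPM, others 0.0532 to 0.117), Isg15 (2.80 TPM, others 0.439 to 0.502) and Gbp2 (0.605 TPM, others 0.289 to 0.309). With vehicle, Ifi207, which meets the rule for the genes that set this library apart, was high in replicate 1 (3.17 TPM, others 0.151 to 0.217). The vehicle group at 72 h also had a high Mx2 value (0.709 TPM, others 0.412 to 0.429) and a low Lgals3bp value (9.23 TPM, others 15.6 to 16.2) in replicate 3, and a high Tap2 value (14.2 TPM, others 11.5 to 11.8) in replicate 2.

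The dexamethasone response differed between 72 h and 24 h, by limma's test of the difference itself, for Samd9l (-0.72, adjusted p = 0.023), Parp14 (-1.0, adjusted p = 0.00265) and Gbp7 (-1.36, adjusted p = 0.0214).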

How the results depend on the processing

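No member's direction reversed among the called members under the alternatives run. The main fit made 64 calls. Where a setting did not test a called gene or its comparison, that call is in neither number below. Of the calls of single members in the 6 comparisons, 54 kept their call and 6 lost it on log2(TPM + 0.1), likewise 54 and 6 on log2(TPM + 1), 58 and 6 with quantile normalisation, 58 and 6 with no filter, 55 and 9 with the groups compared alone, 63 and 1 with library weights, 62 and 0 with the stricter filter, 64 and 0 with the replicate block, and 28 and 0 without both replicate 1 libraries at 72 h. Members called higher at 72 h of dexamethasone numbered 5 with quantile normalisation or the stricter filter, 6 with library weights and 5 without both replicate 1 libraries, in place of 3. Members more negative at 72 h than at 24 h numbered 1 with the groups compared alone, 6 with the replicate block, 17 with library weights and 15 without both replicate 1 libraries, in place of 3. Library weights gave 1 higher and 1 lower for vehicle at 24 h against day 7, in place of 0 and 0. For vehicle at 72 h against 24 h, the 1 lower call became 0 on log2(TPM + 0.1) or log2(TPM + 1), with no filter, with the groups compared alone and with library weights. The replicate block otherwise gave 12 higher and 8 lower in differentiation, 5 and 13 at 24 h, and 4 and 23 at 72 h. In the other comparisons same-numbered libraries deviated together less uniformly. Their r was -0.0142 to 0.492 (median 0.136) for vehicle at 24 h against day 7. For vehicle at 72 h against 24 h it was -0.249 to 0.565 (median 0.119). Over the 24 pairs among the dexamethasone and vehicle groups the median was 0.139. Libraries with different numbers had medians of -0.0488, -0.0922 and -0.0818 in the same order. Deviations were taken from group means, so these are negative on average whenever same-numbered libraries correlate positively. They are no separate evidence of pairing. Of all 24 libraries, 14 correlated best with their own number out of the 4 numbers.

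Leaving out 1 library at a time gave 10 to 12 higher and 5 to 9 lower in differentiation, 2 to 7 higher and 8 to 13 lower at 24 h, 3 to 5 higher and 17 to 23 lower at 72 h, 0 more positive and 1 to 14 more negative between times, 0 and 0 for vehicle at 24 h, and 0 to 1 in each direction for vehicle at 72 h. The lowest counts were 5 lower in differentiation without day 7 replicate 2, and 2 higher at 24 h without dexamethasone replicate 1 (3 without vehicle replicate 3). The count higher at 72 h was 5 without vehicle replicate 2, and vehicle at 72 h gave 1 higher without vehicle replicate 2 at 24 h. Read depth is unknown, so no counting interval can be given for members under 0.5 TPM, and reads shared among class I, Ifi200, Ifit, Gbp and Apol9 genes limit what single members show.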
